A study of Mus musculus with 37 samples.

Results

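The mitochondrial ribosomal proteins were followed through early and mid pregnancy in mouse mammary glands with and without PTP1B. The 77 genes were chosen by symbol (Mrpl or Mrps followed by a number and at most 1 letter), from 19937 genes that a probe set names with exactly 1 symbol, and for a gene with several probe sets the one with the highest mean over all arrays was used. All 77 passed the filter on dim genes. By role, 16 encode small-subunit proteins with a bacterial homologue, 10 small-subunit proteins specific to mitochondria, 30 large-subunit proteins with a bacterial homologue and 20 large-subunit proteins specific to mitochondria. Mrps30 and Mrps18a are counted in the large subunit, where their proteins sit despite the S in the symbol. Mrps36 matches the symbol rule but its protein is now known as a part of the 2-oxoglutarate dehydrogenase complex, so it is counted among the 77 and named apart from both subunits. Mrpl53 was left out because the probe set that names it carries several symbols.

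Mitochondrial ribosomes translate the few proteins encoded by mitochondrial DNA, all of them core subunits of the respiratory chain and ATP synthase. Their RNAs come from the mitochondrial genome, but every ribosomal protein is encoded in the nucleus, made in the cytosol and imported, and many of these proteins have no bacterial counterpart. In the mammary gland, pregnancy replaces fat with secretory epithelium, a tissue that makes protein, lipid and lactose, while fat cells, above all brown ones, hold many mitochondria of their own. PTP1B, encoded by Ptpn1, is a tyrosine phosphatase that damps signalling from insulin, leptin and cytokine receptors.

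Total RNA came from mammary glands of mice with both PTP1B alleles intact (PTP1B +/+, here WT) or with both disrupted (PTP1B -/-, here KO). The knockout had been crossed to FVB for 7 or more generations, and the labels give FVB as the strain of both genotypes. Females were mated when 12 weeks old, and glands were taken on pregnancy day 3, 7, 10 or 15, or from nulliparous females in oestrus, identified by a vaginal plug after a night with a male (P0). No animal was treated. In WT there were 4 arrays each for P0, P7 and P15 and 3 each for P3 and P10, and in KO 4 each for P0 and P15, 5 for P7 and 3 each for P3 and P10, or 37 arrays in all. Nothing in the labels says that replicates came from separate animals, so the p-values measure only the spread between these samples, which may be technical. The tissue was the whole gland, in which fewer cells of a type and less RNA per cell cannot be told apart.

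The arrays were checked against their labels before the comparisons. Ptpn1, the disrupted gene, lay between 7.90 and 9.06 (log2 intensity) on the 18 WT arrays and between 5.36 and 6.49 on 18 of 19 KO arrays. On KO replicate 3 at P15 it was 8.68, inside the WT range, so the 4 KO arrays of that stage are called the arrays labelled KO. The count against WT at P15, and that of the genotype difference in the change from P0 to P15, is also given without replicate 3. Other counts that use these arrays include it unless stated. The direction of each difference at P15 rests on those labels. Skeletal muscle genes were high on WT P0 replicate 4, KO P3 replicate 1 and KO P7 replicate 3, and B and T lymphocyte genes were high on WT P7 replicate 1 and on KO P10 replicates 2 and 3. These 7 arrays are referred to as the arrays in doubt. Epcam, which marks mammary epithelium, was between 9.22 and 10.41 on all arrays.

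The family moved together through pregnancy, with a high point on day 3 and a low point on day 15 of WT pregnancy. The family score averages the 77 genes after each gene's mean level has been subtracted from its log2 values. It was 0.06 ± 0.12 in WT glands at P0 (SD, n = 4), 0.22 ± 0.13 at P3 (n = 3), -0.03 ± 0.04 at P7 (n = 4), 0.04 ± 0.10 at P10 (n = 3) and -0.25 ± 0.05 at P15 (n = 4). In KO glands it was -0.06 ± 0.13 at P0 (n = 4), 0.35 ± 0.10 at P3 (n = 3), -0.05 ± 0.07 at P7 (n = 5), -0.14 ± 0.19 at P10 (n = 3) and -0.00 ± 0.08 at P15 (n = 4). WT and KO arrays overlapped in the score at every stage except P15. Of the 77 genes, 59 had their highest group mean in KO P3 and 47 had their lowest in WT P15. The same was not counted over all tested genes, of which 27.3% were called lower in WT P15 than in WT P0. No score was tested, because its members were chosen with results of these arrays known.

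**Figure D1:**
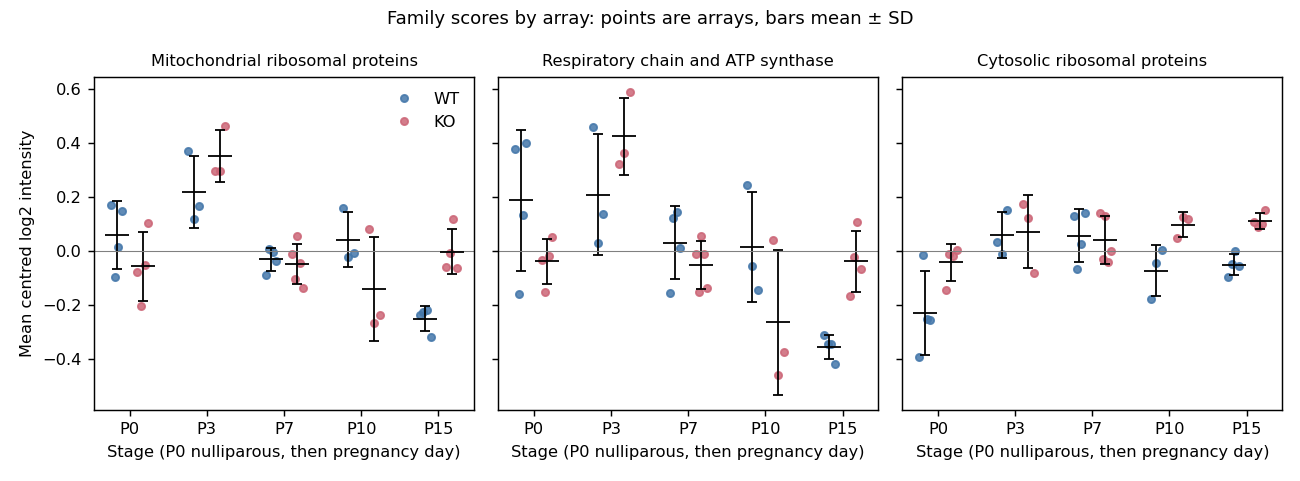
Family scores of each array (mean centred log2 intensity, y axis) by stage (x axis), with WT in blue and KO in red; points are arrays and bars are mean ± SD. The mitochondrial ribosomal proteins (left) have their highest group mean in KO P3, with arrays at 0.30 to 0.46. Their lowest is in WT P15, with arrays at -0.32 to -0.22. WT P3 replicate 1, at 0.37, and KO P10 replicates 2 and 3, at -0.27 and -0.24, lie within these ranges. By group mean the respiratory chain subunits (middle) show the same high and low groups, and the cytosolic ribosomal proteins (right) are lowest in WT P0.

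The size of these shifts differed widely between genes. Group means spanned 1.46 on the log2 scale for Mrpl42, 1.15 for Mrps33, 1.07 for Mrpl27 and 1.06 for Mrpl47, which encode 1 mitochondria-specific and 2 bacterial-type large-subunit proteins and, for Mrps33, a mitochondria-specific small-subunit protein. At the other end the span was 0.34 for Mrpl10, part of the stalk that recruits elongation factors, 0.36 for Mrpl39, 0.36 for Mrpl44 and 0.37 for Mrpl43. The narrow genes are therefore also large-subunit genes, and both bacterial-type and mitochondria-specific proteins are found at each end. The pooled within-group SD per gene had a median of 0.149 over the 77 genes. That median covers all members, and the spread of the widest genes themselves may be larger.

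**Figure D2:**
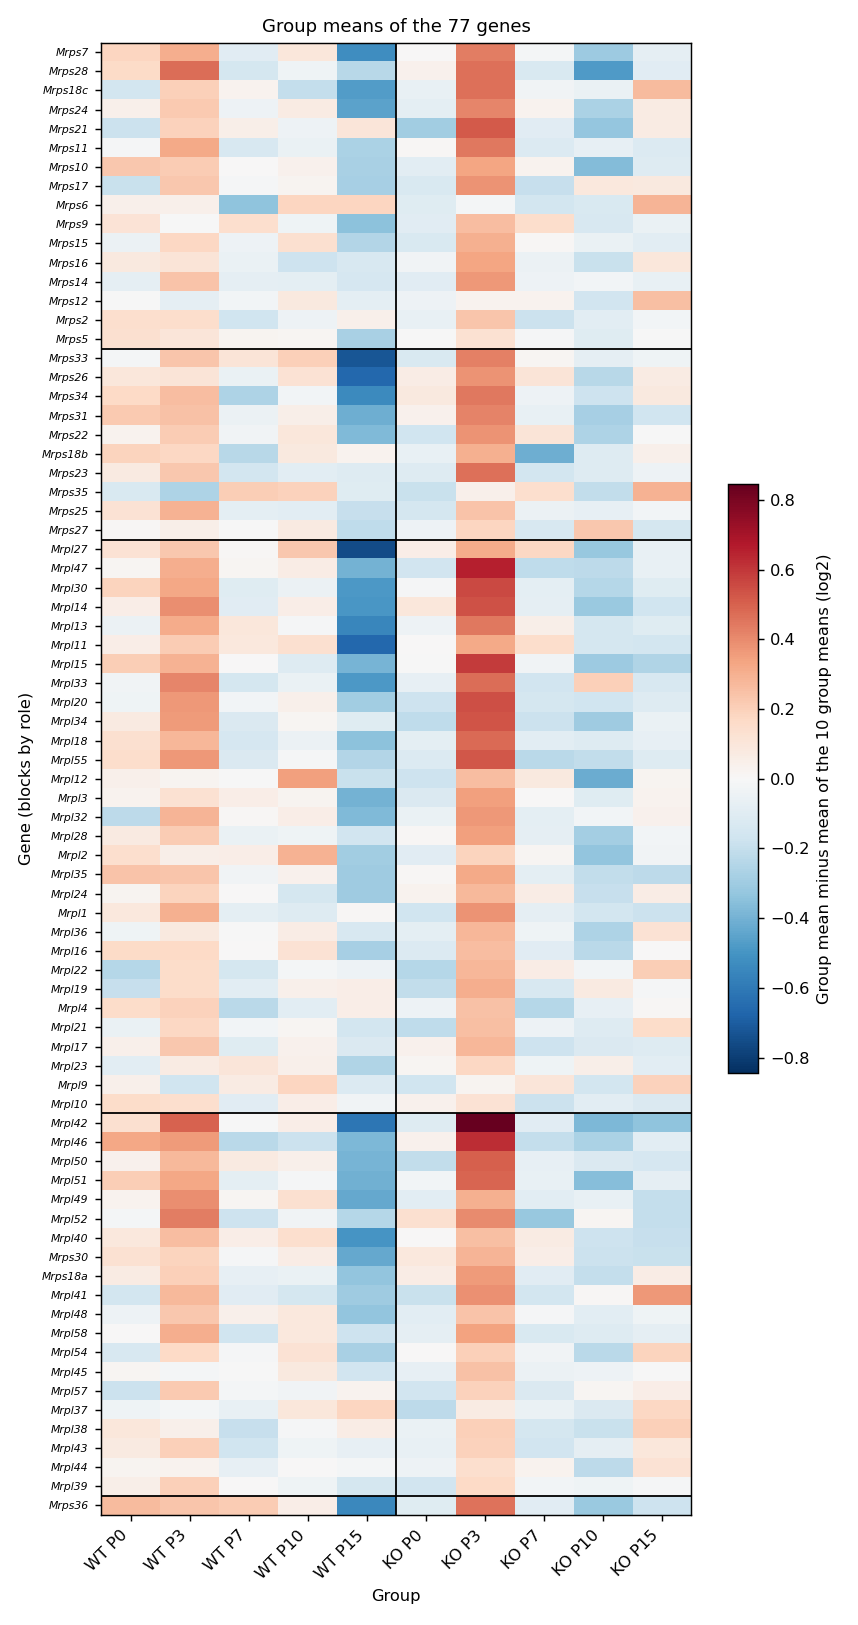
Group means of the 77 genes (rows, blocks by role from top: small subunit with and without a bacterial homologue, large subunit with and without one, and Mrps36), each minus the mean of its 10 group means, in log2 units (colour); columns are the WT and KO groups by stage. The KO P3 column is the highest for 59 genes and the WT P15 column the lowest for 47.

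From P0 to P3 the KO glands showed the broadest rise in the series. In the KO arrays 53 of 77 genes rose and 0 fell (limma, adjusted p under 0.05), against a background of 7.80% of all 16865 tested genes called higher and 11.0% called lower. The median difference of the 77 was 0.39, against -0.01 over all tested genes, and all 77 differences were above 0. The rise ran through both subunits: 19 of 26 small-subunit genes and 34 of 50 large-subunit genes rose, among them 12 of 16 and 20 of 30 with a bacterial homologue, and 7 of 10 and 14 of 20 specific to mitochondria. KO P3 and KO P0 arrays did not overlap for 58 genes, all higher at P3, beside 11.0% of all tested genes that lay apart in that direction.

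The largest KO rises were in Mrpl42, Mrpl47, Mrps21, Mrpl34 and Mrpl20. Mrpl42, a mitochondria-specific large-subunit protein, measured 7.58, 7.35, 7.46 and 7.77 on the 4 KO P0 arrays and 8.44, 8.26 and 8.80 on the 3 KO P3 arrays, a rise of 0.96 ± 0.25 (SE, adjusted p = 0.00863 in limma). Mrps21, a small-subunit protein with a bacterial homologue, measured 10.36, 10.25, 10.35 and 10.49 at P0 and 10.94, 11.34 and 11.25 at P3, a rise of 0.81 ± 0.13 (adjusted p = 0.000145 in limma). For both genes every KO P3 array was above every KO P0 array. Mrpl47 rose by 0.82 ± 0.18, with a smaller difference of 0.44 on its other probe set, Mrpl34 by 0.75 ± 0.16 and Mrpl20 by 0.72 ± 0.16 (adjusted p = 0.00198, 0.00186 and 0.00198 in limma). The 24 genes that were not called included Mrpl10, Mrpl11, Mrpl12, Mrpl27, Mrps34 and Mrps12.

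In WT glands the same step gave fewer calls. From P0 to P3 15 of 77 genes rose and 0 fell, beside 11.6% of all tested genes higher and 6.50% lower, and the median was 0.15, against -0.03 over all tested genes. Mrpl32 measured 8.45, 8.15, 8.38 and 8.48 on the WT P0 arrays and 9.11, 8.63 and 8.88 at P3, a rise of 0.51 ± 0.12 (adjusted p = 0.0043 in limma). Mrpl32 is the large-subunit protein whose processing by the m-AAA protease is needed for ribosome assembly, and its WT P3 arrays were all above its WT P0 arrays. Mrpl52 rose by 0.45 ± 0.09, Mrpl33 by 0.44 ± 0.11, Mrpl41 by 0.42 ± 0.10 and Mrps17 by 0.42 ± 0.12 (adjusted p from 0.00065 to 0.0161 in limma). Among the 15 were 6 of 20 mitochondria-specific large-subunit genes and 0 of 10 mitochondria-specific small-subunit genes.

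The larger count in KO glands was not called as a genotype difference. Fitted as KO minus WT in the change from P0 to P3, 0 of 77 genes passed the threshold in limma, and 23 had an unadjusted p under 0.05, or 29.9% beside 19.2% of all tested genes, while 0.302% of all tested genes were called higher and 1.67% lower. The smallest p-values belonged to Mrps9, a small-subunit protein with a bacterial homologue, with a difference of 0.48 ± 0.14 (adjusted p = 0.0678 in limma), and to Mrps10, with 0.43 ± 0.14 (adjusted p = 0.0946). The median over the 77 was 0.24, against -0.00 over all tested genes. The count was 3 without WT P0 replicate 2, 2 without WT P3 replicate 1 or KO P3 replicate 2, 1 without KO P7 replicate 1 and 1 after quantile normalisation, all of them higher in KO. This contrast was added after seeing the data.

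Other gene groups moved at the same step. In KO glands 10 of 12 fibroblast and matrix markers and 9 of 10 macrophage markers fell from P0 to P3, while 0 of 17 cell cycle genes were called. Skeletal muscle markers had a median of 1.87 there, with 1 of 18 called, and KO P3 replicate 1 is one of the arrays with high muscle genes. In WT glands 17 of 17 cell cycle genes rose, 8 of 9 endothelial markers fell and 0 of 12 fibroblast markers fell. Their part in the mitochondrial ribosomal rise was not tested. Without the arrays in doubt 50 genes rose in KO and 18 in WT. Without KO P3 replicate 3 the KO count was 35. With each array centred on its median it was 32, and with KO P0 and P3 arrays fitted alone 23, beside 21.8% and 6.36% of all tested genes. The WT count was 9 without WT P0 replicate 3, 7 without WT P3 replicate 1 and 5 without WT P3 replicate 3. It was 7 after centring and 0 with the compared groups alone, beside 21.1% and 2.83% of all tested genes. It was 19 with the pan-epithelial score, or with muscle and lymphocyte scores, as covariates, all of them rises. With the brown adipocyte score as a covariate, chosen after seeing the data, 30 genes rose and 0 fell in WT.

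Between P3 and P7 the family came down again in both genotypes. As the mean of WT and KO, 60 of 77 genes fell and 1 rose, beside 13.1% of all tested genes lower and 14.7% higher, with a median of -0.33 against -0.02 over all tested genes. This step uses the same P3 arrays as the rises above. The fall covered 21 of 26 small-subunit and 39 of 50 large-subunit genes. The count lay between 53 and 62 whichever array was left out, counting both directions, and was 59 without the arrays in doubt.

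The most precise fall was in Mrpl52, a mitochondria-specific large-subunit protein. It measured 9.89, 9.58 and 9.85 on the WT P3 arrays and 9.14, 9.07, 9.18 and 9.26 at P7, and 9.67, 9.86 and 9.69 on the KO P3 arrays and 8.99, 9.07, 9.19, 8.98 and 8.85 at P7. Within each genotype every P3 array was above every P7 array, and Mrpl52 fell by 0.67 ± 0.06 (SE, adjusted p = 3.72e-09 in limma). Mrpl46 measured 8.68, 8.12 and 8.14 in WT at P3 and 7.67, 7.84, 7.66 and 7.75 at P7, with the KO arrays at 8.37, 8.49 and 8.88 and then between 7.64 and 7.81, a fall of 0.71 ± 0.11 (adjusted p = 2.41e-05). Mrpl42 fell by 0.72 ± 0.18, Mrpl55 by 0.62 ± 0.10 and Mrps28 by 0.61 ± 0.10. The gene that rose was Mrps35, a mitochondria-specific small-subunit protein named here after its values were seen. It measured 7.92, 7.74 and 7.84 on the WT P3 arrays and 8.37, 8.46, 8.24 and 8.14 at P7, and 8.24, 7.85 and 8.31 on the KO P3 arrays and 8.43, 8.10, 8.27, 8.11 and 8.25 at P7. The rise of Mrps35 was 0.28 ± 0.08 (adjusted p = 0.00527 in limma), and its arrays separated in WT and overlapped in KO. The 16 genes that were not called included Mrpl12, Mrps12, Mrpl11, Mrpl44 and Mrps36.

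At P7 and P10 the family was close to its nulliparous level. In WT glands at P7 1 gene rose and 10 fell against P0 (background 15.5% higher and 13.8% lower), with a median of -0.09 against -0.05 over all tested genes. The gene that rose was Mrps35, by 0.34, and the largest fall was in Mrpl46, by 0.55. Mrps18b fell by 0.42 ± 0.11 and Mrps34, a protein that stabilises small-subunit RNA, fell by 0.43 ± 0.12 (adjusted p = 0.00361 and 0.0105 in limma). Mrps34 measured 8.38, 8.36, 8.38 and 8.35 on the WT P0 arrays and 8.14, 7.85, 7.87 and 7.89 at P7. All 4 P7 arrays were below the P0 arrays, and the highest of them is one of the arrays in doubt. In WT glands at P10 2 genes rose and 1 fell (11.7% and 9.71%), with Mrps35 up by 0.33 ± 0.11 and Mrpl54 up by 0.25 ± 0.09, and Mrpl46 fell by 0.51. Mrps35 and Mrpl46 thus moved in the same direction at both stages, against shared P0 arrays.

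In KO glands at P7 2 genes rose, Mrps35 by 0.33 and Mrps9 by 0.25, and 2 fell, Mrpl52 by 0.46 and Mrps18b by 0.35 (7.84% higher and 8.34% lower of all tested genes). In KO glands at P10 1 gene rose, Mrpl19, by 0.29, and 6 fell (14.4% and 16.3%), with Mrps28 down by 0.51, Mrpl14 by 0.41 and Mrpl27 by 0.37. With muscle and lymphocyte scores as covariates 0 genes were called there and the median turned from -0.08 to 0.15. Without the arrays in doubt, where KO P10 is replicate 1 alone, the median was 0.16. With the brown adipocyte score as a covariate 8 rose and 0 fell, with a median of 0.08. Between P7 and P10, as a mean of genotypes, 4 genes rose and 2 fell (10.1% and 7.55%). Mrps18b rose by 0.31, Mrps6 by 0.27, Mrpl52 by 0.24 and Mrpl33 by 0.22, while Mrps9 fell by 0.23 and Mrpl24 by 0.21. With muscle and lymphocyte scores as covariates 4 rose and 0 fell, where 4.99% of all tested genes were called, and the median turned from -0.03 to 0.10. Without the arrays in doubt, again with KO P10 as replicate 1 alone, the median was 0.11. Adding the brown adipocyte score gave 14 rises and 1 fall, with a median of 0.08. These steps touched genes of both subunits.

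These small counts were sensitive to single arrays. The WT P7 total of 11 was 6 without WT P0 replicate 3, WT P0 replicate 4 or the arrays in doubt, 7 without WT P0 replicate 1, WT P7 replicate 1 or WT P7 replicate 4, and 20 without WT P0 replicate 2. The WT P10 total of 3 was between 0 and 7, changing without WT P0 replicates 1, 2 or 3 or WT P10 replicates 2 or 3. The KO P7 total of 4 was 1 without KO P0 replicate 1 or KO P7 replicate 1. The KO P10 total of 7 was 23 without KO P10 replicate 1, 1 without replicate 2, 2 without replicate 3, 11 without KO P0 replicate 2 and 4 without KO P0 replicate 4.

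By P15 the WT glands had the lowest group mean of the family score. Against P0, 41 of 77 genes fell and 2 rose, with Mrpl19 and Mrpl37 the 2 that rose, named after their values were seen. Of all tested genes 27.3% were called lower and 21.6% higher, and the median was -0.26 for the 77 and -0.06 for all tested genes. The fall covered 15 of 26 small-subunit and 25 of 50 large-subunit genes and Mrps36. WT P15 and WT P0 arrays did not overlap for 32 genes that were lower at P15, beside 20.8% of all tested genes.

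Mrps26 was the clearest of these genes. It encodes a mitochondria-specific protein of the small subunit, and measured 7.73, 7.72, 7.69 and 7.70 on the WT P0 arrays and 6.88, 7.02, 6.97 and 6.92 at P15, a fall of 0.76 ± 0.08 (adjusted p = 1.33e-08 in limma). Mrpl11, which binds ribosomal RNA at the site where translation factors act, measured 8.83, 8.49, 8.76 and 8.97 at P0 and 8.11, 7.95, 8.04 and 8.08 at P15, a fall of 0.72 ± 0.11 (adjusted p = 3.23e-06). In both genes all WT P15 arrays lay below all WT P0 arrays. Mrpl27 fell by 0.88 ± 0.10, Mrps36 by 0.81 ± 0.19 and Mrpl42 by 0.75 ± 0.23 (adjusted p = 3.97e-08, 0.000939 and 0.00892).

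In the arrays labelled KO the same interval gave few calls. Against KO P0, 10 of 77 genes rose and 2 fell at P15, beside 19.5% of all tested genes higher and 21.8% lower, with a median of 0.04 against 0.01 over all tested genes. Mrpl41 rose by 0.55 ± 0.09, Mrps35 by 0.49 ± 0.10, Mrpl37 by 0.39 ± 0.08, Mrpl9 by 0.37 ± 0.12 and Mrps21 by 0.36 ± 0.12, while Mrpl52 fell by 0.34 ± 0.08 (adjusted p from 1.42e-05 to 0.0175 in limma). Mrps35 measured 7.77, 7.72, 8.05 and 8.06 on the KO P0 arrays and 8.19, 8.44, 8.45 and 8.46 on the 4 arrays labelled KO at P15, which were all above them.

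The direction of the median in the arrays labelled KO depended on scaling. With each array centred on its median, 4 genes rose and 10 fell from KO P0 to the arrays labelled KO at P15, and the median turned to -0.09. The same centring moved the median of all tested genes from 0.01 to -0.13, and the 77 lay above it in both. Without the arrays in doubt 9 genes rose and 5 fell, with a median of -0.00. In WT, centring gave 0 rises and 69 falls, with a median of -0.45 where that of all tested genes went from -0.06 to -0.25 and the split of all calls from 3641 higher and 4597 lower to 2230 higher and 8433 lower. Between P10 and P15, as a mean of genotypes, 3 of 77 genes rose and 13 fell (23.7% and 26.2% of all tested genes), with Mrps33 down by 0.44, Mrpl11 by 0.40 and Mrpl33 by 0.38 ± 0.08. The genes that rose were Mrps21, by 0.27, Mrpl38, by 0.23, and Mrpl37, by 0.19. With muscle and lymphocyte scores as covariates 42.9% of all tested genes were called at this step, and with centred arrays 47.1%. That total of 16 was 29 and 27 in these fits, in each case all lower. Without the arrays in doubt KO P10 is replicate 1 alone, so no count is given for that fit. With the pan-epithelial score as a covariate it was 10, with 6 higher and 4 lower, and the median turned from -0.09 to 0.06; pan-epithelial markers rose for 15 of 19 at this step.

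The gland's make-up changed at the same time. From P0 to P15 in WT, 12 of 19 pan-epithelial markers rose and 3 fell, all 11 milk protein genes rose, all 10 white adipocyte markers fell, and 7 of 8 brown adipocyte markers fell, with a median of -2.41. With the pan-epithelial score as a covariate 2 of the 77 genes rose and 18 fell in WT from P0 to P15, with a median of -0.16. That is 2.6% higher and 23.4% lower, beside 13.3% and 16.4% of all tested genes in the same fit. With the brown adipocyte score as a covariate, an alternative chosen after seeing the data, 5 rose and 16 fell, with a median of -0.10. That is 6.49% higher and 20.8% lower, beside 15% and 17.8% of all tested genes, whose median was -0.06. With the brown adipocyte score the share of members that fell lay near that of all tested genes. The median of all tested genes was -0.05 with the pan-epithelial score. The part of the gland's make-up in the fall was not tested.

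**Figure D3:**
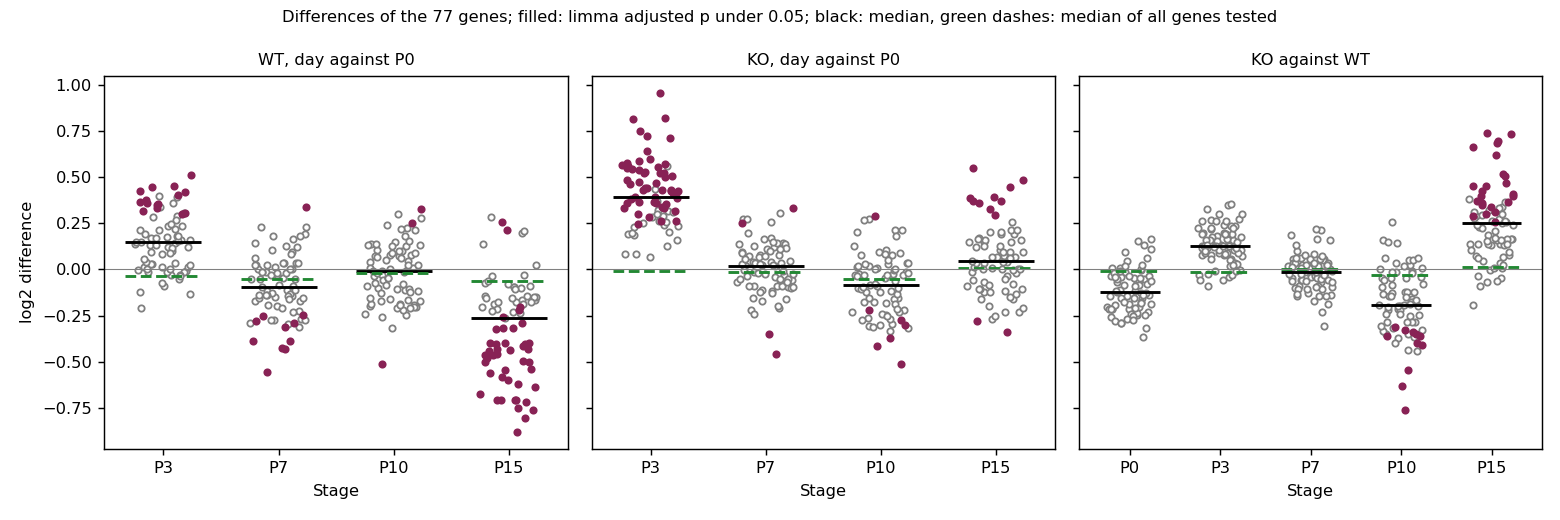
log2 differences of the 77 genes (points, y axis) in each stage against P0 in WT (left) and KO (middle) and in KO against WT at each stage (right); filled points passed limma at an adjusted p under 0.05, black lines are the medians of the 77 and green dashes the medians of all tested genes. KO P3 against P0 has 53 filled points, all above 0, WT P15 against P0 has 41 below 0 and 2 above, and KO against WT has 24 above 0 at P15.

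Between genotypes the family differed most at P15. There 24 of 77 genes were higher in the arrays labelled KO than in WT and 0 were lower, beside 6.78% of all tested genes higher and 4.33% lower. The median difference was 0.25, against 0.01 over all tested genes, and 70 of 77 differences were above 0. Small and large subunits both took part, with 11 of 26 and 13 of 50 genes higher, and by role 6 of 16, 5 of 10, 9 of 30 and 4 of 20. Arrays did not overlap for 35 of 77 genes that were higher in the arrays labelled KO and for 1 that was lower, Mrpl1, beside 10.6% and 8.49% of all tested genes. This comparison shares its WT P15 arrays with the WT fall from P0.

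Mrps18c led by size. It encodes the S18 homologue of the small subunit, and measured 8.54, 8.75, 9.03 and 8.65 on the WT P15 arrays and 9.46, 9.30, 9.58 and 9.58 on the arrays labelled KO, a difference of 0.74 ± 0.11 (adjusted p = 6.21e-05 in limma). Mrps26 measured 6.88, 7.02, 6.97 and 6.92 in WT and 7.47, 7.74, 7.80 and 7.71 in the arrays labelled KO, a difference of 0.73 ± 0.08 (adjusted p = 5.8e-06). Neither gene's groups overlapped, and the difference of Mrps26 was larger than the SD of either group, 0.06 in WT and 0.14 in the arrays labelled KO.

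Mrpl27, the homologue of a bacterial protein that reaches into the peptidyl transferase centre, measured 8.53, 8.77, 8.94 and 8.68 in WT and 9.36, 9.38, 9.63 and 9.32 in KO, a difference of 0.69 ± 0.10 (adjusted p = 6.29e-05 in limma). Mrps33, a mitochondria-specific small-subunit protein, measured 8.31, 8.50, 8.42 and 8.18 in WT and 9.01, 8.94, 9.11 and 9.10 in KO, a difference of 0.69 ± 0.11 (adjusted p = 0.00017). Mrpl41, a mitochondria-specific large-subunit protein, measured 7.50, 7.70, 7.70 and 7.69 in WT and 8.28, 8.18, 8.22 and 8.58 in KO, a difference of 0.66 ± 0.09 (adjusted p = 3.38e-05). For each of these 3 genes every array labelled KO was above every WT array, KO replicate 3 with its WT level of Ptpn1 included. Their other probe sets gave smaller differences, 0.38 for Mrpl27, 0.20 for Mrps33 and 0.13 for Mrpl41, so the sizes are uncertain.

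Promoters were read for 68 of the 77 genes from RefSeq (GRCm38.p6), as 250 bases before to 50 bases after the gene's first listed start. Motifs were searched on both strands by their letters. The ETS core CCGGAAG was found in 24 of 68, or 35.3%, against 14.3% of 13255 genes tested on the arrays and 9.12% of all 27025 genes. The YY1 core AANATGGCG was found in 11, or 16.2%, against 4.04% and 2.51%. The NRF1 core CATGCGC was found in 8, or 11.8%, against 5.82% and 4.04%, and CCAAT in 26, or 38.2%, against 37.7% and 37.9%. Median GC content was 58.2% in the members, 59.3% in tested genes and 52.7% in all genes. These matches are descriptions of sequence and were not compared with the expression values.

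Promoters of 4 named members are shown, chosen because they hold an NRF1 or an ETS core within 150 bases of the start, after the matches were seen. They give the 150 bases before the start, 5′ to 3′ on the gene's strand, with matches in capitals: NRF1 cores in Mrpl32 (chr13:14613038-14613187, minus strand, 2 of them overlapping), an NRF1 core and a CCAAT box in Mrpl33 (chr5:31613801-31613950, plus strand), a CCAAT box and an ETS core in Mrps26 (chr2:130563607-130563756, plus strand) and an ETS core in Mrps18a (chr17:46110854-46111003, plus strand).
Mrpl32: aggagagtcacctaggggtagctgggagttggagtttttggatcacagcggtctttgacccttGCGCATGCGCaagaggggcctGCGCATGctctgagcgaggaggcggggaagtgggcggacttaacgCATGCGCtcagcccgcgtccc
Mrpl33: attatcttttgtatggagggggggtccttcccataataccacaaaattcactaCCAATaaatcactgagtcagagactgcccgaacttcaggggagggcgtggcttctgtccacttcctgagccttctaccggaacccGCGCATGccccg
Mrps26: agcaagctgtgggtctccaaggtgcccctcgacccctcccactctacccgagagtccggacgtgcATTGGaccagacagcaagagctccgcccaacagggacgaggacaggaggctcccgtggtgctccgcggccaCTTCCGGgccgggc
Mrps18a: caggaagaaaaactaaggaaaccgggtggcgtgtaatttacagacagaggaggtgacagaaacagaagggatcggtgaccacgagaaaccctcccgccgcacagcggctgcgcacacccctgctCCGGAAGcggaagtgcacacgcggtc

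Not every member followed the genotype difference at P15. The 7 differences at or below 0 belonged to Mrpl1, at -0.19, Mrpl10, at -0.09, Mrpl19, at -0.07, Mrps2, at -0.06, Mrpl4, at -0.05, Mrps21, at -0.04, and Mrpl37, at -0.00, none of which passed the test. Mrpl19 and Mrpl37 are also the genes that rose in WT from P0 to P15. Mrps26 lies on chromosome 2, as Ptpn1 does, 360 tested genes away from it in genome order, and Mrpl41, Mrps2 and Mrps5 lie on the same chromosome at 1118, 1021 and 400 tested genes from Ptpn1.

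Without KO replicate 3, the array with a WT level of Ptpn1, 18 genes were called at P15, all of them among the 24, and the median was 0.19. Its own family score, 0.12, was the highest of the P15 arrays, and the score of the other 3 KO arrays was between -0.06 and -0.01, all above the WT arrays, at -0.32 to -0.22. Without all 7 arrays in doubt the count was 17.

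Brown adipocyte genes varied widely among the arrays labelled KO at P15. Their score was -1.19, -1.41, -1.29 and -1.86 on the WT arrays and -1.10, 0.32, 0.36 and -0.83 on the arrays labelled KO. All arrays labelled KO were above WT, replicate 1 only just, and replicate 3, at 0.36, is the array with a WT level of Ptpn1. Of the 8 markers 1 rose, Cox8b, by 2.17 ± 0.43, and the median of the 8 was 1.12. In fibroblast and matrix markers 9 of 12 fell, with a median of -0.49, and of the 19 pan-epithelial markers 0 were called, with a median of 0.02. With the brown adipocyte score as a covariate, chosen after seeing the data, 16 genes rose and 2 fell at P15, and the median went from 0.25 to 0.12. That is 20.8% higher and 2.6% lower, beside 7.48% and 4.44% of all tested genes in the same fit. Mrps26 then differed by 0.71, Mrps18c by 0.70, Mrpl41 by 0.67, Mrpl27 by 0.64, Mrps33 by 0.54, Mrps12 by 0.36 and Mrps18a by 0.32.

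At the earlier stages few genes or none separated the genotypes. At P0 0 of 77 were called in limma and 11 had an unadjusted p under 0.05, or 14.3% beside 20.8% of all tested genes, with a median of -0.12 against -0.01 over all tested genes, of which 1.27% were higher and 0.421% lower in KO. The count was 8, all lower in KO, without WT P0 replicate 2 and 1 without KO P0 replicate 4. Mrps10 had the smallest p, with a difference of -0.32 ± 0.09 (adjusted p = 0.0606 in limma). At P3 0 were called and 6 had an unadjusted p under 0.05, or 7.79% beside 7.1% of all tested genes, with a median of 0.13 and 67 differences above 0 (0.00593% of all tested genes higher and 0.113% lower). At P7 0 were called and 0 had an unadjusted p under 0.05, beside 2.63% of all tested genes, and the median was -0.01 (0% of all tested genes called higher and 0.00593% lower). With the brown adipocyte score as a covariate the median at P7 turned to 0.10, with 69 of 77 differences above 0 and 0 called.

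At P10 the KO arrays were lower. There 11 of 77 genes fell and 0 rose, beside 9.13% of all tested genes lower and 8.10% higher, with a median of -0.19 against -0.03 over all tested genes. Mrpl12, the stalk protein that also binds the mitochondrial RNA polymerase, measured 10.20, 9.84 and 10.02 on the WT arrays and 9.73, 8.99 and 9.04 on the KO arrays, a fall of 0.76 ± 0.17 (adjusted p = 0.00233 in limma). Mrpl2, whose protein lies near the peptidyl transferase centre, measured 8.91, 8.46 and 8.75 in WT and 8.26, 8.0 and 7.98 in KO, a fall of 0.63 ± 0.11 (adjusted p = 0.00054). For both genes the groups did not overlap, but the lowest KO values came from replicates 2 and 3. Mrps35 fell by 0.41 ± 0.12, Mrps10 by 0.40 ± 0.10 and Mrps26 by 0.36 ± 0.10.

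KO P10 replicates 2 and 3 are arrays in doubt, and the result at P10 rests on them. Their B and T lymphocyte score was 3.68 each, while the other 4 arrays of that stage were between -0.27 and 0.01, and all 15 lymphocyte markers rose, with a median of 2.54. Replicate 1 had a family score of 0.08, inside the WT range of -0.02 to 0.16, and replicates 2 and 3 were at -0.27 and -0.24. Without the arrays in doubt KO P10 is replicate 1 alone, so no count is given, and the median turned to 0.06. With muscle and lymphocyte scores as covariates the median was 0.04. That fit called 0 of the 77 and 0 of all 16865 tested genes, so its count cannot tell the family from other genes. The count was 31 without KO P10 replicate 1, 4 without replicate 2, 3 without replicate 3, 6 without WT P10 replicate 1 and 7 without WT P10 replicate 3. With centred arrays it was 32, beside 29% of all tested genes, with a median of -0.33 where that of all tested genes was -0.17. Brown adipocyte scores also differed, at -0.24, -1.78 and -1.87 on KO replicates 1, 2 and 3 and 0.81, -0.25 and -1.35 on the WT arrays. With that score as a covariate 8 genes fell and the median was -0.08. The part of lymphocyte content in these values cannot be told apart from genotype on 2 of the 3 KO arrays.

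The genotype difference varied between stages for a part of the family. An F test in limma called 27 of 77 genes, beside 18% of all tested genes. Mrps26 had the largest F statistic of the 77, 20.3, followed by Mrpl27 with 16.3, Mrps33 with 11.03, Mrpl2 with 10.99 and Mrpl54 with 10.5. Mrpl54, a mitochondria-specific large-subunit protein, measured 9.07, 8.83 and 8.92 on the WT P10 arrays and 8.80, 8.49 and 8.48 on the KO ones, but 8.56, 8.70, 8.35 and 8.56 in WT and 8.90, 8.97, 9.08 and 9.09 in KO at P15. Mrpl54 was lower on the KO arrays at P10, of which replicates 2 and 3 are in doubt, and higher on the arrays labelled KO at P15, without overlap at either stage. Without the arrays in doubt the F test called 6 genes, with muscle and lymphocyte scores as covariates 11, with the brown adipocyte score 17 and with centred arrays 41.

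The change from P0 to P15 was also compared between genotypes, in a contrast added after seeing the data. KO minus WT in that change was called for 25 of 77 genes, all higher in KO, beside 4.80% of all tested genes higher and 5.30% lower, and the median was 0.35 against 0.04. Mrps33 differed by 0.80 ± 0.16, Mrps26 by 0.77 ± 0.12, Mrpl27 by 0.76 ± 0.15, Mrps34 by 0.71 ± 0.18 and Mrpl41 by 0.70 ± 0.13 (adjusted p from 0.000247 to 0.00986 in limma). Mrps34 measured 7.90, 7.59, 7.77 and 7.39 in WT at P15 and 8.19, 8.28, 8.38 and 8.29 in KO, against 8.38, 8.36, 8.38 and 8.35 and then 8.14, 8.19, 8.39 and 8.39 at P0. The KO arrays of Mrps34 overlapped between P0 and P15, and the WT arrays did not. The count was 16 without WT P0 replicate 1, WT P0 replicate 4 or KO P15 replicate 3, and 15 without KO P0 replicate 2, WT P15 replicate 4 or the arrays in doubt. With the brown adipocyte score as a covariate it was 11, with a median of 0.21, and with the pan-epithelial score or the compared groups alone 16.

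Averaged over the 5 stages, KO and WT differed little. In that mean 3 of 77 genes were higher in KO and 0 lower (1.30% and 1.13% of all tested genes), namely Mrps18c by 0.24 ± 0.05, Mrpl41 by 0.17 and Mrps26 by 0.15. The count was 1 without WT P3 replicate 2, WT P7 replicate 2, WT P10 replicate 2, KO P10 replicate 2 or WT P15 replicate 1, and 0 without the arrays in doubt.

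**Figure D4:**
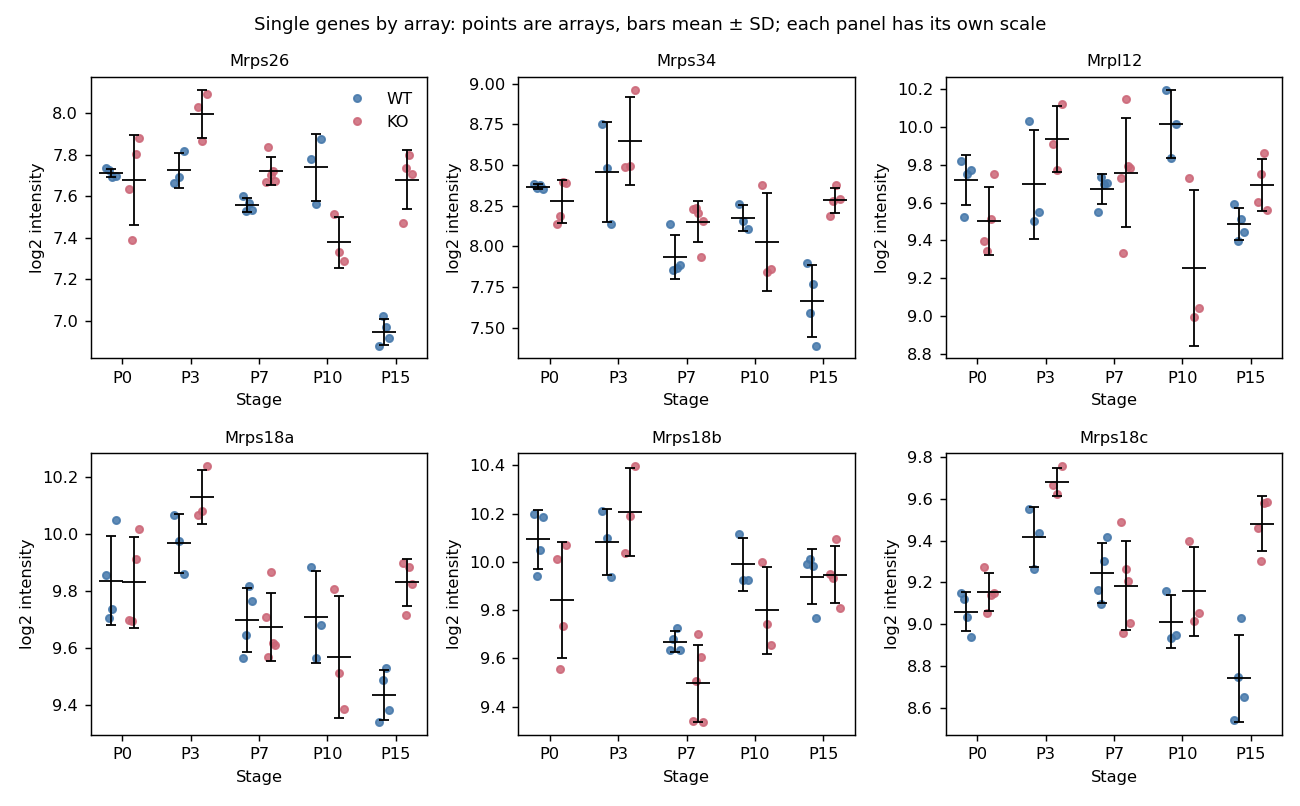
log2 intensity of 6 genes on each array (y axis, each panel with its own scale) by stage (x axis), with WT in blue, KO in red and bars at the mean ± SD. At P15 the KO arrays of Mrps26, Mrps34, Mrps18a and Mrps18c lie above all WT arrays, those of Mrps18b overlap WT, and Mrpl12 is lowest on KO P10 replicates 2 and 3.

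The 3 mammalian homologues of bacterial ribosomal protein S18 are described side by side, and differences between them were not tested. Mrps18c, the S18 of the small subunit, differed most between genotypes at P15, as given above, and rose from P0 to P3 in both genotypes, by 0.36 ± 0.12 in WT and 0.53 ± 0.12 in KO. Mrps18a, whose protein sits in the large subunit, measured 9.34, 9.48, 9.53 and 9.38 on the WT P15 arrays and 9.90, 9.72, 9.88 and 9.82 on the KO ones, a difference of 0.40 ± 0.09 (adjusted p = 0.00558 in limma). Its groups did not overlap. Mrps18b sits in the small subunit, where Mrps18c takes the place of bacterial S18, and so Mrps18a and Mrps18b are counted among the mitochondria-specific proteins despite their homology. Mrps18b measured 9.99, 10.01, 9.98 and 9.77 in WT and 9.95, 9.93, 10.09 and 9.81 in KO, a difference of 0.01 ± 0.11 (adjusted p = 0.983). Between P3 and P7 all 3 fell, Mrps18b by 0.56 ± 0.08, Mrps18a by 0.36 ± 0.07 and Mrps18c by 0.33 ± 0.08 (adjusted p = 4.4e-06, 0.000272 and 0.00241 in limma). Between P7 and P10 Mrps18b rose by 0.31 ± 0.08 (adjusted p = 0.0064), and the differences of Mrps18a and Mrps18c were -0.05 ± 0.07 and -0.13 ± 0.08.

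Mrps12, the homologue of the bacterial decoding-site protein S12, was not called before P15. It was called in none of the comparisons between P0, P3, P7 and P10, and then measured 7.30, 7.00, 7.21 and 7.05 in WT and 7.44, 7.54, 7.45 and 7.49 in KO at P15, a difference of 0.34 ± 0.09 (adjusted p = 0.01 in limma). Against P0 it rose in KO at P15 by 0.30 ± 0.09, while in WT the difference was -0.08 ± 0.09. Mrpl12 was called at P10 alone among the genotype comparisons, and its other differences were -0.22 ± 0.15 in nulliparous glands, 0.24 ± 0.17 on day 3, 0.09 ± 0.14 on day 7 and 0.21 ± 0.15 on day 15.

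Other genes of mitochondrial gene expression were read from lists. Beside the counts that follow stand 7.80% of all tested genes higher and 11.0% lower in KO from P0 to P3, 21.6% and 27.3% in WT from P0 to P15, and 6.78% and 4.33% in KO against WT at P15. The 4 tested mitoribosome proteins with other symbols gave 2 rises in KO from P0 to P3, 2 falls in WT from P0 to P15 and 1 rise in KO against WT at P15, which was Chchd1, a small-subunit protein, at 0.80 ± 0.14. Of 15 translation factors and mRNA partners, 5 rose in the first comparison, 1 rose and 8 fell in the second and 3 rose in the third. Slirp, which stabilises mitochondrial mRNA, had differences of 0.53 ± 0.13, -0.89 ± 0.12 and 0.75 ± 0.12 in these comparisons, all called. Of 25 genes of mitoribosome assembly and rRNA modification, 11 rose, then 2 rose and 11 fell, then 8 rose. Mtg1, a GTPase of large-subunit assembly, had differences of 0.49 ± 0.16, -1.28 ± 0.14 and 0.80 ± 0.14.

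Charging of transfer RNA and mitochondrial DNA maintenance gave similar counts. Of 19 aminoacyl-tRNA synthetase and amidotransferase genes, 10 rose in KO from P0 to P3, 2 rose and 8 fell in WT from P0 to P15, and 5 rose and 1 fell in KO against WT at P15. The gene that fell was Nars2, the asparaginyl-tRNA synthetase, by 0.34 ± 0.11, and it had risen in WT from P0 to P15 by 0.98 ± 0.11. Of 9 genes of mitochondrial DNA replication and transcription 3 rose, then 1 rose and 5 fell, then 3 rose, with Ssbp1, the single-stranded DNA binding protein, at 0.58 ± 0.10 in the first and 0.60 ± 0.09 in the third. Of 9 regulators of mitochondrial biogenesis 0 were called in the first or the third. In WT from P0 to P15 3 of the 9 rose, beside 21.6% of all tested genes, Myc by 1.25 ± 0.20, Pprc1 by 0.44 ± 0.17 and Nrf1 by 0.29 ± 0.08, and Ppargc1a, the coactivator known for brown fat, fell by 1.63 ± 0.33.

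Beside the family stood its 2 nearest comparisons, the nuclear-encoded respiratory chain and ATP synthase subunits and the cytosolic ribosomal proteins. In KO from P0 to P3 47 of 74 respiratory subunits rose and 0 fell, with a median of 0.45, and 4 of 61 cytosolic ribosomal proteins rose and 0 fell, with a median of 0.05. Of all tested genes 7.80% were called higher and 11.0% lower there, and the 4 cytosolic rises lay near that higher share. In WT over the same step 2 and 29 rose, with medians of 0.04 and 0.29, beside 11.6% of all tested genes higher and 6.50% lower. The mitochondrial ribosomal median lay near the respiratory one in KO and between both families in WT.

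The cytosolic family differed in direction from WT P0 to P15 and not in the genotype comparison at P15. In WT from P0 to P15 1 respiratory subunit rose and 57 fell, with a median of -0.50, while 30 cytosolic ribosomal proteins rose and 2 fell, with a median of 0.20. Of all tested genes 21.6% were called higher and 27.3% lower in that comparison. Between P3 and P7 41 respiratory subunits fell and 0 rose, and 9 cytosolic ribosomal proteins fell and 10 rose. Both cytosolic counts lay near the shares of all tested genes, 13.1% lower and 14.7% higher. In KO against WT at P15 20 respiratory subunits rose and 0 fell, with a median of 0.23, and 10 cytosolic ribosomal proteins rose and 0 fell, with a median of 0.16. There 6.78% of all tested genes were called higher and 4.33% lower. The differences between the families were not tested.

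For 8 members the arrays carried a further probe set, and both probe sets did not always give the same size. In KO against WT at P15 the probe set used and the other gave 0.66 and 0.13 for Mrpl41, 0.69 and 0.38 for Mrpl27, 0.33 and -0.04 for Mrpl51, 0.34 and 0.05 for Mrpl47, and 0.26 and 0.01 for Mrps5. They gave 0.69 and 0.20 for Mrps33, whose other probe set passed the intensity limit on 20 of 37 arrays, 0.36 and 0.37 for Mrps36, and 0.16 and 0.20 for Mrpl23. The size of the P15 difference is therefore uncertain for Mrpl41, Mrpl27, Mrpl51, Mrpl47, Mrps5 and Mrps33. Mrps26, Mrps18c, Mrps18a, Mrps34 and Mrps12 have 1 probe set each, so this check does not apply to them.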

How the data were processed

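Mouse mammary gland RNA was measured on 37 Affymetrix whole-transcript arrays, 1 per sample. The authors deposited 1 log2 intensity per probe set (34760, from 2.10 to 13.7), made with affy per the submitters' processing notes. Of background correction, summarisation and normalisation nothing is given in the sources used here, and array medians ran from 6.52 to 6.79. Probe sets were named through the platform annotation; 21640 carried 1 symbol, 1321 several and 11799 none. Each of 19937 genes was represented by its probe set with the highest mean. Genes above 4.96, the 25th percentile, on 3 or more arrays were tested (16865). In limma 3.58.1 (R 4.3.3) all 37 arrays were fitted with 1 mean per group, and p-values were adjusted by Benjamini-Hochberg over all tested genes, with a threshold of 0.05; the fit was tested on simulated data. The number of arrays limits the precision. Genes were named by a rule: in each comparison up to 5 of the largest rises and 5 of the largest falls among called members whose arrays do not overlap, or, where fewer than 3 were called, the 3 with the smallest p as values; the 4 widest and 4 narrowest ranges; the S18 homologues, Mrpl12, Mrps12 and Ptpn1; and up to 4 called genes of each other list. Others, lists of uncalled members included, were named after their values were seen. The members and all lists were chosen with earlier results of these data known. The brown adipocyte covariate and both comparisons of changes from P0 were added after seeing the data. Replicate numbers are shared between groups but the labels tie them to no animal, litter or day. Within comparisons, same-numbered arrays did not deviate together in every pair (at P15 the correlations ran from -0.141 to 0.384). Alternatives changed the filter, scaling, prior, probe sets, covariates, samples fitted and single arrays.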

Additional observations from a re-analysis of the deposited data

Results flagged for a closer look

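In single groups of 4 or 5 arrays, 14 of 234 checks found 1 array far from the rest of its group; chance alone marks about 1 in 20. On WT P15 replicate 4 the log2 intensity was 7.77 for Mrps25, 9.77 for Mrps18b, 10.6 for Mrps21 and 9.94 for Mrpl37, each below the other 3 arrays, and 7.26 for Mrpl33, above them. On WT P15 replicate 1 it was 7.50 for Mrpl41 and 6.59 for Mrpl42, both low. On KO P15 replicate 1 it was 8.20 for Mrps35 and 8.36 for Mrpl9, both low. At P7 it was 8.14 for Mrps34 on WT replicate 1, high, 7.94 for Mrps34 on KO replicate 4, low, 7.62 for Mrpl33 on WT replicate 4, high, and 9.23 for Mrps6 on WT replicate 2, low. Mrpl2 was low, at 8.13, on KO P0 replicate 2.

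The genotype difference varied between stages by the F test for 27 genes. The F statistic was 20.3 for Mrps26, 16.3 for Mrpl27, 11.03 for Mrps33, 10.99 for Mrpl2, 10.5 for Mrpl54 and 10.1 for Mrpl41. It was 9.88 for Mrps24, 8.49 for Mrps35, 7.91 for Mrps18c, 7.52 for Mrpl3, 7.14 for Mrps10, 6.53 for Mrpl12, 6.38 for Mrpl36, 6.29 for Mrps22 and 6.16 for Mrpl11. It was 5.87 for Mrpl40, 5.62 for Mrps34, 5.42 for Mrpl21, 5.31 for Mrps9, 5.18 for Mrpl24, 5.14 for Mrps12 and 5.07 for Mrps7. It was 4.78 for Mrpl13, 4.57 for Mrpl9, 4.49 for Mrps18a, 4.39 for Mrpl51 and 4.38 for Mrpl16. Outside that list, KO minus WT in the change from P0 to P15 was called for Mrpl18, at 0.49, and Mrps25, at 0.45. The values at P10 and P15 rest in part on arrays in doubt, as given in the report.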

How the results depend on the processing

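Counts are of the 77 genes called, in both directions, and only counts that moved by more than 1.5 times are given; medians that turned are beside their results in the report. The cause was not tested. Percentages in brackets are the shares of all tested genes called in the same fit, which are not given for the F test. With each array centred on its median, the count was 32 in KO against WT at P10 (29%), 7 in WT P3 against P0 (21.1%) and 69 in WT P15 (63.2%). It was 32 in KO P3 (21.8%), 29 in KO P10 (47%), 27 in P15 against P10 (47.1%) and 41 in the F test. After quantile normalisation it was 15 in KO P10 against P0 (38.7%) and 1 in the KO minus WT change from P0 to P3 (1.51%). With the pan-epithelial score as a covariate it was 22 in KO against WT at P10 (23.1%), 6 in WT P7 (21.3%) and 1 in WT P10 (18%). In the same fit it was 20 in WT P15 (29.7%), 22 in KO P10 (38.6%) and 10 in P15 against P10 (32.8%). The KO minus WT change from P0 to P15 gave 16 (10.2%). With the muscle and lymphocyte scores the count was 0 in KO against WT at P10 (0%), with the median turned to 0.037, and 1 in the mean over stages (0.368%). It was 0 in KO P10 against P0 (3.24%), 29 in P15 against P10 (42.9%) and 11 in the F test. With the brown adipocyte score, added after seeing the data, it was 30 in WT P3 (18.3%), 18 in WT P7 (31%) and 8 in WT P10 (15.7%). In the same fit it was 21 in WT P15 (32.8%), 13 in KO P7 (15.2%) and 20 in KO P15 (41%). P10 against P7 gave 15 (17.2%), the KO minus WT change from P0 to P15 11 (8.15%) and the F test 17. Without the arrays in doubt it was 0 in KO against WT at P10, with the median turned to 0.065, 0 in the mean over stages, 6 in WT P7, 0 in KO P10 against P0, 33 in P15 against P10, 15 in the KO minus WT change from P0 to P15 and 6 in the F test. With the compared groups fitted alone, which leaves fewer arrays, the count was 0 in KO against WT at P10 (0.00593%), 0 in WT P3 (2.83%) and 0 in WT P10 (2.65%). In the same fits it was 23 in KO P3 (6.36%), 1 in KO P7 (14.6%) and 0 in KO P10 (10.8%). The KO minus WT change from P0 to P15 gave 16 (6.8%).

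Leaving out 1 array at a time, the count in KO against WT ran from 0 to 8 at P0, 0 to 0 at P3, 0 to 0 at P7, 3 to 31 at P10 and 17 to 27 at P15, and from 1 to 3 in the mean over stages. Against P0 it ran in WT from 5 to 18 at P3, 6 to 20 at P7, 0 to 7 at P10 and 37 to 47 at P15, and in KO from 35 to 63, 1 to 6, 1 to 23 and 10 to 16. It ran from 53 to 62 in P7 against P3, 4 to 7 in P10 against P7, 15 to 21 in P15 against P10, 0 to 3 and 15 to 37 in the KO minus WT changes from P0 to P3 and to P15, and 18 to 35 in the F test.

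Same-numbered arrays share only a number. With the replicate number as a block the count was 24 in KO against WT at P15, 11 at P10, 55 in KO P3, 44 in WT P15, 17 in WT P3, 58 in P7 against P3, 22 in the KO minus WT change from P0 to P15 and 25 in the F test, and no count moved by more than 1.5 times. The number of arrays limits the precision.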
